A study of Mus musculus with 13 samples.

Results

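The 34 genes described here are complement and coagulation genes, chosen by symbol from the 54513 gene symbols of the count table. Of them 23 belong to complement and 11 to coagulation. By role, 20 are activators (proteases, cofactors, structural components and the pore proteins), 6 are receptors and 8 are regulators. All 34 passed the filter on low counts and were tested. Cfi, Vsig4, Cfb and Tfpi2 passed it only through the bleomycin libraries, where they were higher. The study sequenced total RNA of 13 lung sections, fixed in formalin and kept in paraffin, from C57Bl/6 males aged 7 to 8 weeks at day 21. Of these, 8 libraries are from mice given bleomycin, a DNA-damaging drug that injures the alveoli and is used to model lung fibrosis, and 5 are from saline controls. The batch labels put bleomycin replicates 5 to 8 and all saline libraries in batch 1 and bleomycin replicates 1 to 4 in batch 2. The labels give no genetic modification for any group. Whether every library comes from its own mouse is not stated, so the p-values reflect the spread of the libraries, which may be technical.

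The complement system is a chain of plasma and tissue proteases that tags cells and debris for clearance. It starts when C1q, with the proteases C1r and C1s, binds a surface (the classical pathway), when lectins bind sugars with MASP proteases (the lectin pathway), or by slow self-activation that factor B, factor D and properdin amplify (the alternative pathway). All of these routes cleave C3, release small peptides that act on receptors of leukocytes, and can end in a membrane pore. Coagulation starts when tissue factor meets factor VII and runs through factors X and V to thrombin, while thrombomodulin, the protein C receptor and tissue factor pathway inhibitor on endothelium restrain it. Most plasma factors are made in the liver, but macrophages, fibroblasts, epithelium and endothelium of the lung make some of them.

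Promoters are shown for the 3 genes with the largest log2 changes among the 24 members that have a promoter in RefSeq (build GRCm38.p6), since these genes carry the strongest rises described below. Each line gives the 250 bases before the gene's start, 5′ to 3′ on the gene's strand, with capitals marking GAGGAA or its reverse complement TTCCTC, a form of the core at sites of the myeloid factor PU.1. C1qb lies at chr4:136886201-136886450, C1qc at chr4:136892915-136893164 and C3ar1 at chr6:122856158-122856407, all on the minus strand.
C1qb: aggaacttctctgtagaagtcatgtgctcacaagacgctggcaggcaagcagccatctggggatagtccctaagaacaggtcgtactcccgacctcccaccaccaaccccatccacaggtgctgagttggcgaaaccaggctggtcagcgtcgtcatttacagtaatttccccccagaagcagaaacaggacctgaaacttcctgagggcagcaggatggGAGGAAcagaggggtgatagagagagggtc
C1qc: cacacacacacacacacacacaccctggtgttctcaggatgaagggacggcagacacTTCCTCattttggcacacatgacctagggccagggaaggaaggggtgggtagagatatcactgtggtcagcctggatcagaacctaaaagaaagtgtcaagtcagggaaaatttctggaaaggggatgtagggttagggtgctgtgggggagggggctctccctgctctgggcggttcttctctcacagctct
C3ar1: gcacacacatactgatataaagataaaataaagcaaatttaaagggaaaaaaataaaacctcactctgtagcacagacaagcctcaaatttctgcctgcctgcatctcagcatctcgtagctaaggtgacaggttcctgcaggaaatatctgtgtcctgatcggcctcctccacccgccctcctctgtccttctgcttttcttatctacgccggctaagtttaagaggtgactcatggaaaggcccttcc
The C1qb match begins 30 bases before the start, on the gene's own strand, and the C1qc match begins 193 bases before it, on the opposite strand. The letters do not occur in the C3ar1 window. Searched on both strands from 250 bases before to 50 after the start, the 6 letters occurred in 28.3% of all 32851 promoter windows and in at least 1 window of 11 of the 24 members (45.8%). The first share is of windows and the second of genes with 29 windows, so the shares are not the same measure. Counted the same way, the letters were in 9 of the 14 members with a window that rose and in 2 of the other 10. A gene with more windows had more chances of a match, and this split was not tested. A match is a description of the letters and not a binding site.

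The comparison of bleomycin with saline within batch 1 asks which of these genes differ in the lung at day 21 after the drug. Of the 34 members, 23 rose and 1, Thbd, fell, at a Benjamini-Hochberg adjusted p under 0.05 in edgeR's quasi-likelihood test over all genes. Across all 20468 tested genes 30.9% were called, 17.5% rising and 13.4% falling. The median log2 change of the members was 0.92, against 0.03 over all tested genes. Of the 34 members, 17 were called with a change of at least 2-fold, as were 3036 of the 20468 tested genes. The members were chosen with earlier results of these data known, so these values cannot test whether they moved more than other genes. The complement calls went in 1 direction: 18 of 23 members rose and none fell, with a median log2 change of 1.54. Among the uncalled complement members, C7 had a log2 change of -0.47. The coagulation calls were mixed: 5 of 11 rose and 1 fell, with a median of 0.61. Among complement genes, 11 of 14 activators (median 1.14), 5 of 5 receptors (1.91) and 2 of 4 regulators (0.55) rose. In coagulation, 3 of 6 activators rose (median 0.74), while of 4 regulators 2 rose and 1 fell (0.50). These counts include Cfb, Vsig4, Cfi and Tfpi2, which passed the filter on low counts only through the bleomycin libraries. The difference between these groups of genes was not tested.

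**Figure D1:**
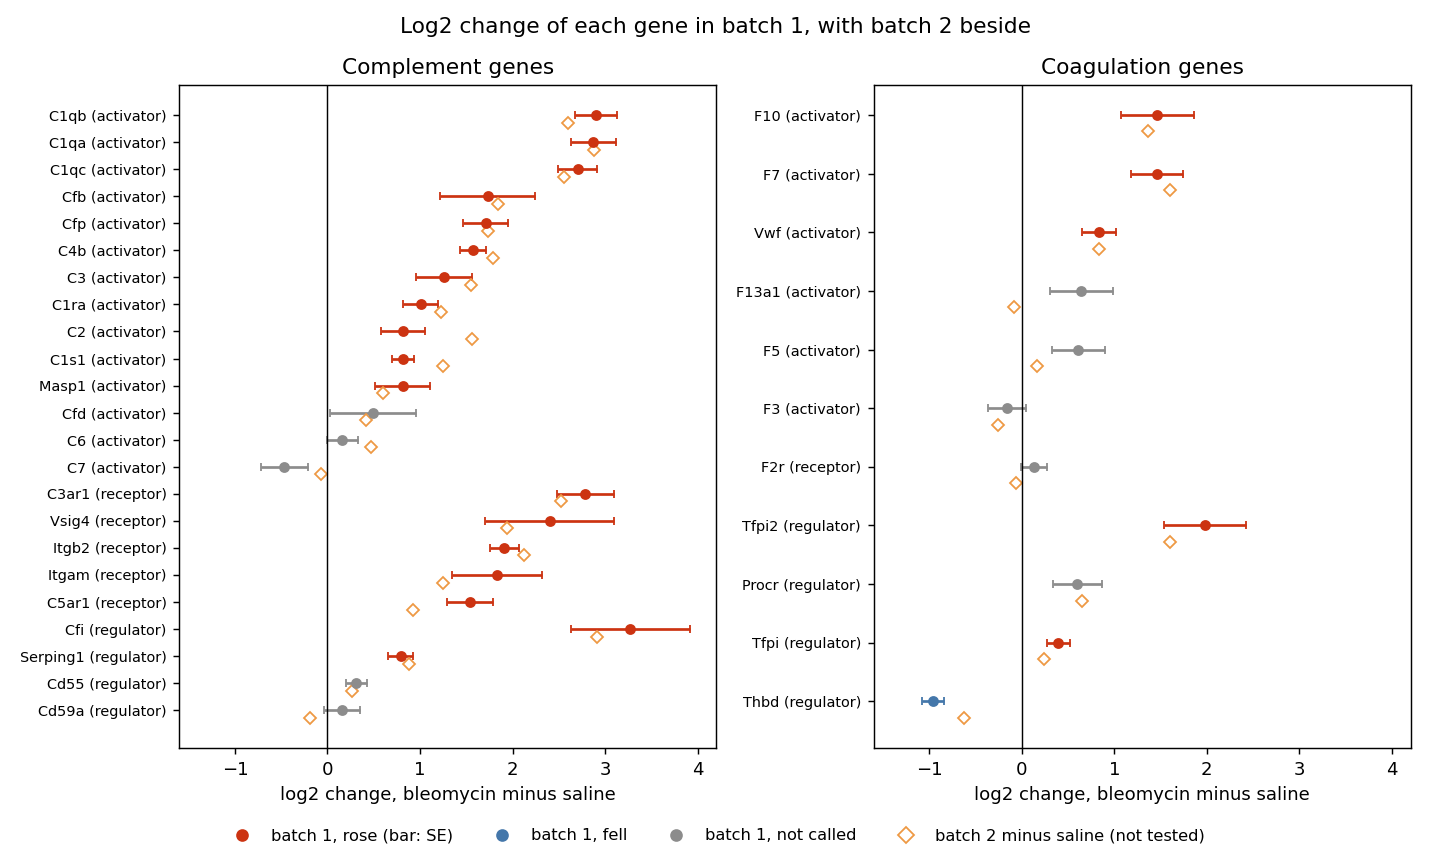
The log2 change from saline to bleomycin in batch 1 (circles, with the SE as a bar) and the log2 difference of batch 2 bleomycin from saline (open diamonds, not tested) are plotted for each complement gene on the left and each coagulation gene on the right, grouped by role. All 18 called complement genes lie to the right of 0, and Thbd is the called gene to the left of it.

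Bleomycin replicate 8 has a title that says control, while its treatment label and library name say bleomycin, and it was kept with bleomycin. Of the 23 members that rose, it had the highest level of the 4 batch 1 bleomycin libraries in 15, and bleomycin replicate 5 had the lowest in 19. Without replicate 8, 17 members rose and 1 fell, where 13.8% of all tested genes rose and 12.8% fell: 13 complement genes rose, and in coagulation 4 rose and 1 fell. The labelled tissue showed in 6 lung markers, which summed to 9668 to 16580 CPM in saline, 3405 to 5458 in batch 1 and 4352 to 10350 in batch 2 bleomycin, and 4 of them fell. In bulk tissue, fewer cells of a type and less RNA per cell cannot be told apart.

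The genes of the classical pathway's recognition molecule had, with Cfi and C3ar1, the largest changes of the 34 members. C1qa, C1qb and C1qc encode the chains of C1q. Levels are given as CPM, read counts scaled to a common library total. C1qa measured 9.89, 12.3, 9.78, 15.2 and 13.8 CPM in saline replicates 1 to 5, 47.2, 109, 95.7 and 104 CPM in bleomycin replicates 5 to 8, and 118, 84.1, 71.3 and 84.2 CPM in batch 2 bleomycin replicates 1 to 4. Every bleomycin library lay above every saline library, and replicate 5 was the lowest of the bleomycin libraries. The mean went from 12.2 ± 2.39 (SD, n = 5) to 88.9 ± 28.3 CPM (n = 4), a 7.32-fold rise (log2 change 2.87, SE 0.24, adjusted p = 4e-06).

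C1qb, the B chain, measured 17.8, 17.2, 13.1, 20.2 and 13.7 CPM in saline, 70.7, 148, 132 and 139 CPM in batch 1 bleomycin, and 137, 80.3, 86.2 and 94.6 CPM in batch 2. C1qc, the C chain, measured 13.04, 14.6, 9.78, 10.9 and 10.4 CPM in saline, 42.4, 91.1, 81.6 and 89.5 CPM in batch 1 bleomycin, and 88.8, 61.7, 61.5 and 64.3 CPM in batch 2. Neither gene's bleomycin range touched its saline range in either batch, and replicate 5 was again the lowest of batch 1. C1qb rose 7.47-fold (log2 change 2.90, SE 0.23, adjusted p = 2.62e-06) and C1qc 6.51-fold (2.703, SE 0.21, adjusted p = 1.53e-06). By log2 change C1qb, C1qa, C3ar1 and C1qc ranked 236, 244, 266 and 284 among the 20468 tested genes. The level of C1qa per C1qb was 0.756 ± 0.163 in saline, 0.719 ± 0.0353 in batch 1 and 0.907 ± 0.0972 in batch 2 bleomycin. It ran from 0.555 to 1.01 in saline, and its ranges in the bleomycin batches, 0.668 to 0.747 and 0.827 to 1.05, did not overlap.

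C1q in tissue is made mainly by macrophages, and macrophage markers moved with it. Of 10 monocyte and macrophage markers 9 rose (median log2 change 1.71), and none was at 0 in all libraries of a group. Their summed level was 1562 to 1933 CPM in saline, 2026 to 2297 in batch 1 and 2506 to 2977 in batch 2 bleomycin, of which Lyz2, also made by alveolar type 2 cells, took 57.2% to 85.2%. Without Lyz2, a choice made after seeing the data, the sums were 268 to 289, 437 to 868 and 502 to 773 CPM. The summed C1q chains per unit of that sum were 0.143 ± 0.0183 in saline, 0.413 ± 0.0451 in batch 1 and 0.449 ± 0.0127 in batch 2 bleomycin, 2.89 and 3.14 times the saline value. With Lyz2 in the sum the ratio was 5.61 and 4.08 times the saline value. Per unit of Csf1r, the receptor that macrophages need for survival, the chains stood at 0.594 ± 0.108, 2.26 ± 0.435 and 2.17 ± 0.162. The ratios did not overlap between saline and bleomycin, and the part of macrophage number in the change was not tested.

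**Figure D2:**
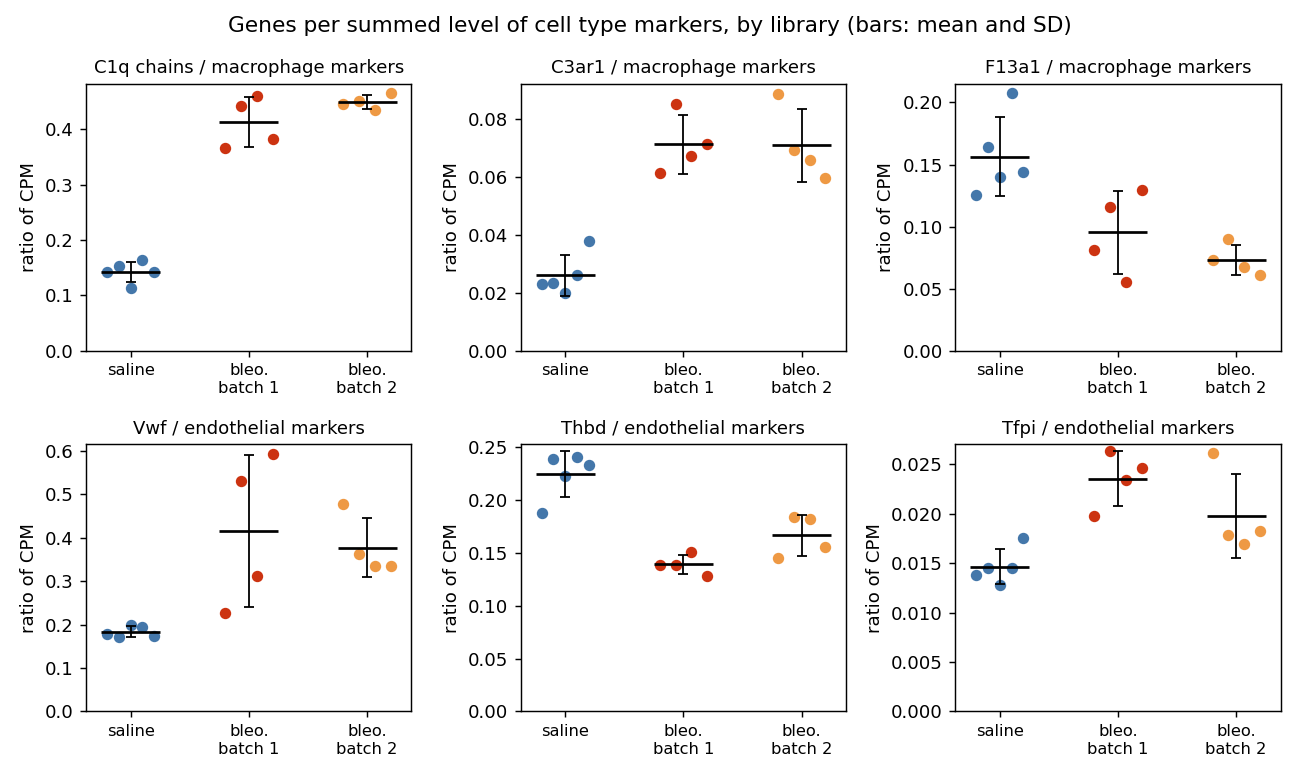
Each panel plots the CPM of a gene, or of the summed C1q chains, divided by the summed CPM of a marker list in each library, by group, with the mean and SD as black bars; the macrophage list is without Lyz2. C1q and C3ar1 per macrophage marker and Vwf per endothelial marker are higher in every bleomycin library than in every saline library, while Thbd per endothelial marker is lower.

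The C1 proteases and the components that C1 cleaves rose less. C1ra, the mouse C1r protease, went from 25.1 ± 2.69 to 50.5 ± 19.2 CPM, a log2 change of 1.01 (SE 0.19, adjusted p = 0.000959). C1s1, the C1s protease, went from 74.4 ± 3.29 to 131 ± 27.6 CPM (0.81, SE 0.12, adjusted p = 0.000118). Both genes stood above saline in all bleomycin libraries of both batches. C4b, which encodes complement C4, measured 108, 114, 125, 122 and 121 CPM in saline, 265, 352, 289 and 497 CPM in batch 1 bleomycin, and 382, 406, 392 and 444 CPM in batch 2. No bleomycin library fell within the saline range, and the rise in batch 1 was 2.98-fold (log2 change 1.57, SE 0.14, adjusted p = 1.77e-06). Fibroblasts are a tissue source of C1r, C1s, C4 and C1 inhibitor; 4 of 8 fibroblast markers rose and 1 fell, and the list summed to 1232 to 1620 CPM in saline, 3268 to 10370 in batch 1 and 4863 to 10630 in batch 2 bleomycin. Collagen genes carried that rise: without them the sums were 463 to 510, 413 to 651 and 448 to 557 CPM. The part of fibroblasts in these rises was not tested.

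C4a, a near-identical copy of C4b, was not called (8.09 ± 2.57 to 10.3 ± 4.75 CPM), and reads of the pair may be split between them. C1rb, C1s2, Cd55b and Cd59b, copies of other members, were scarce and not called. C2, the protease that joins C4b in the classical C3 convertase, went from 2.13 ± 0.347 to 3.75 ± 0.673 CPM, a log2 change of 0.82 (SE 0.24, adjusted p = 0.0152), again with no overlap in either batch. Without replicate 8 its adjusted p was 0.0555. Masp1, a protease of the lectin pathway, rose from 4.23 ± 1.60 to 7.47 ± 2.37 CPM (0.81, SE 0.30, adjusted p = 0.0494), with overlapping ranges. Of the 20 alternative analyses, 8 kept the call for Masp1, and the adjusted p without replicate 8 was 0.122.

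C3, the component on which all routes converge, was the most abundant complement member per kilobase of exon in every group. It measured 479, 460, 522, 515 and 438 CPM in saline, 596, 872, 939 and 2225 CPM in batch 1 bleomycin, and 1750, 1308, 1232 and 1380 CPM in batch 2. All bleomycin libraries exceeded all saline libraries, and replicate 8 stood far above the other 3 of its batch. The batch 1 rise was 2.40-fold (log2 change 1.26, SE 0.30, adjusted p = 0.0079), and without replicate 8 the log2 change was 0.70. Per kilobase of exon C3 stood at 93.9 CPM in saline, 225 in batch 1 and 276 in batch 2 bleomycin. Alveolar type 2 cells make C3, and 5 of 7 of their markers fell in batch 1. C3 per unit of their summed level was 5.70 (3.42 without replicate 8) and 4.09 times the saline value in batches 1 and 2. In batch 2 that sum (3524 to 8720 CPM) overlapped saline (6586 to 8533 CPM). The batch 2 ratio was 0.497 in replicate 1 and 0.225, 0.141 and 0.2 in replicates 2 to 4. Per unit of the fibroblast markers other than collagens, C3 was 2.18 and 2.93 times the saline value, and the source of the added C3 was not tested.

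Of the alternative pathway genes, Cfp and Cfb rose and Cfd was not called. Cfp encodes properdin, which stabilizes the alternative convertase, and went from 5.54 ± 0.490 to 18.1 ± 6.84 CPM, a log2 change of 1.71 (SE 0.24, adjusted p = 8.85e-05), above saline in every bleomycin library. Cfb, factor B, measured 0.384, 1.62, 0.584, 0.629 and 0.368 CPM in saline and 1.61, 1.98, 0.984 and 4.51 CPM in batch 1 bleomycin. Saline replicate 2 overlapped the bleomycin libraries, and Cfb rose with a log2 change of 1.73 (SE 0.51, adjusted p = 0.017), a call that was lost without replicate 8 (1.12, adjusted p = 0.116). In the annotation used for lengths, 2246 of 2825 exon bases of Cfb and 1656 of 3872 of C2 are shared with the readthrough model Gm20547, which has 0 counts in all libraries, so the levels of both genes are uncertain.

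Cfd encodes factor D (adipsin), the protease that cleaves factor B and is abundant in fat. It measured 55.2, 38.3, 33.0, 39.0 and 33.0 CPM in saline, 38.3, 26.5, 29.7 and 129 CPM in batch 1 bleomycin, and 31.6, 79.1, 55.6 and 44.2 CPM in batch 2. Replicate 8 alone of batch 1 lay above saline, and the groups overlapped (log2 change 0.49, SE 0.46, adjusted p = 0.466); without it the value turned to -0.37. The summed level of 10 adipocyte markers was 121 to 611 CPM in saline, 72.7 to 232 in batch 1 and 32.4 to 221 in batch 2 bleomycin, with replicates 5 and 8 both at 232 CPM. The part of fat in the Cfd values was not tested.

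The 2 members of the membrane pore, C6 and C7, were not called. C7 went from 179 ± 10.7 to 130 ± 33.2 CPM in batch 1 and 170 ± 70.0 in batch 2 (log2 change -0.47, SE 0.25, adjusted p = 0.182). Its bleomycin libraries ran from 90.8 to 241 CPM, on both sides of the saline libraries (165 to 194). With batch 1 libraries alone in the fit, C7 passed as lower (-0.50, adjusted p = 0.0226). C6 went from 16.3 ± 2.37 to 18.3 ± 1.79 CPM (0.16, SE 0.17, adjusted p = 0.505). Of the 12 other complement activators, 11 rose, where 17.5% of all tested genes rose.

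**Figure D3:**
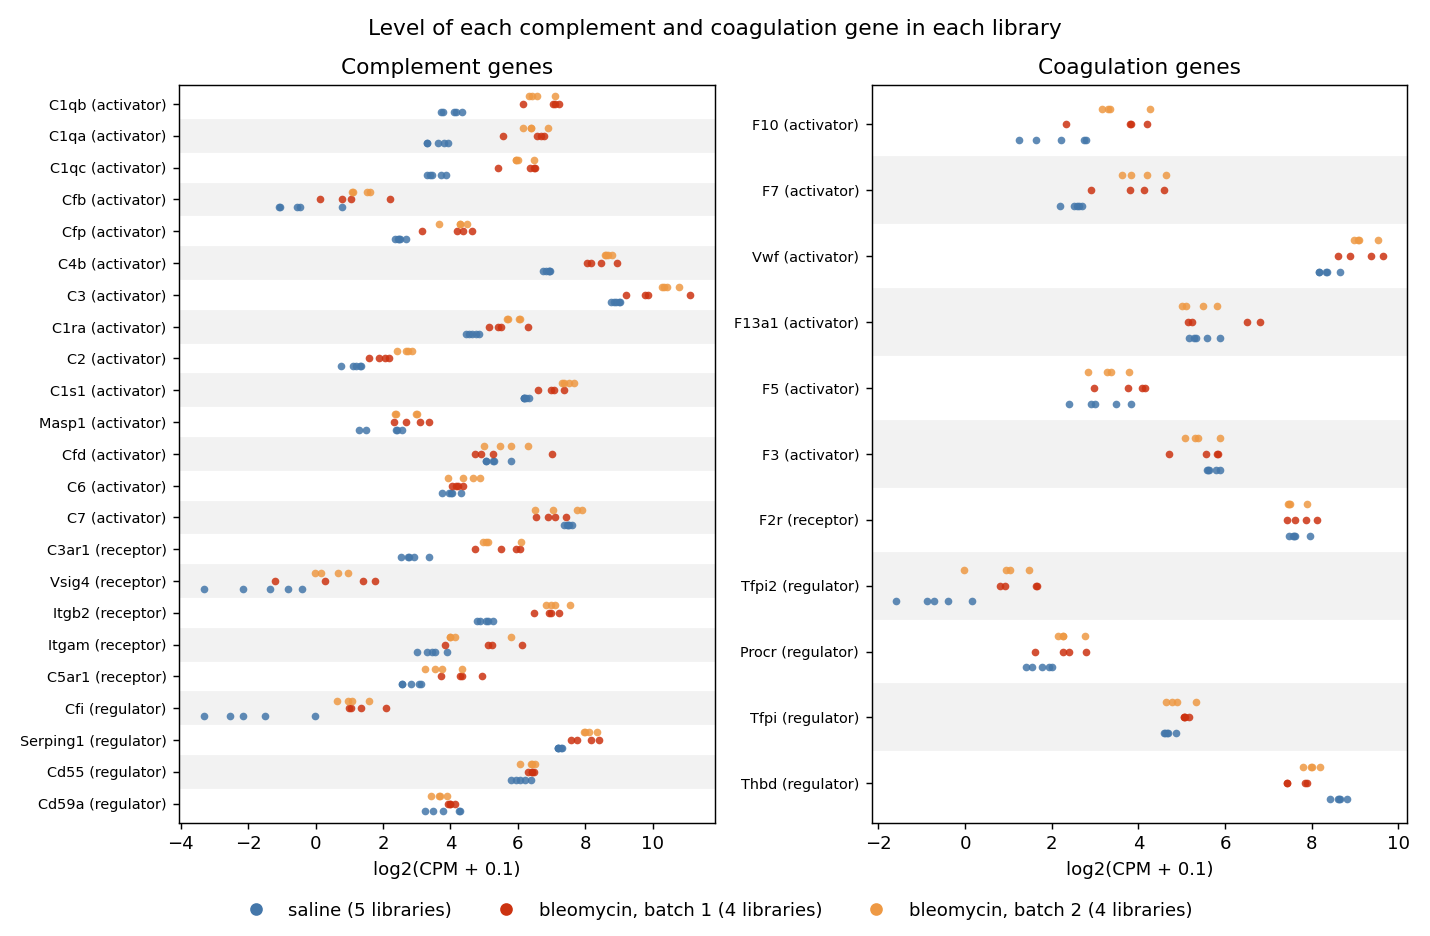
Each point is the level of a gene in 1 library, as log2(CPM + 0.1), for complement genes on the left and coagulation genes on the right, grouped by role and coloured by group. The C1q chains, C4b, C3ar1, Itgb2, Cfi and Serping1 have bleomycin libraries of both batches above all 5 saline libraries, and C6, C7, Cd59a, F3 and F2r have groups that overlap.

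All 5 complement receptors rose, but Itgam and Vsig4 were not called without replicate 8, and Vsig4 passed the filter only through the bleomycin libraries. C3ar1, the receptor for the C3a peptide, measured 6.56, 6.73, 5.66, 7.42 and 10.2 CPM in saline, 26.7, 66.9, 45.1 and 61.8 CPM in batch 1 bleomycin, and 68.4, 34.7, 33.1 and 31.2 CPM in batch 2. Every bleomycin library exceeded the highest saline library, and the rise was 6.89-fold (log2 change 2.79, SE 0.31, adjusted p = 3.31e-05). Per unit of macrophage marker without Lyz2, C3ar1 was 2.74 times the saline value in batch 1 and 2.72 times in batch 2, and with Lyz2 it was 5.40 and 3.65 times. C5ar1, the receptor for C5a, went from 7.11 ± 1.37 to 20.8 ± 7.37 CPM, a log2 change of 1.54 (SE 0.25, adjusted p = 0.000239) and stood at 13.6 ± 4.62 CPM in batch 2. Per macrophage marker C5ar1 was 1.19 and 0.926 times the saline value without Lyz2, and 2.32 and 1.23 times with it.

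Itgam and Itgb2 encode the chains of complement receptor 3, which binds C3 fragments on phagocytes. Itgb2, shared with other leukocyte integrins, measured 34.5, 29.3, 38.1, 27.5 and 33.2 CPM in saline, 89.6, 127, 123 and 151 CPM in batch 1 bleomycin, and 189, 127, 115 and 137 CPM in batch 2. The groups did not overlap in either batch (log2 change 1.91, SE 0.16, adjusted p = 1.56e-06). Itgam spread far more: 7.94 to 14.96 CPM in saline, then 14.1, 34.9, 37.9 and 69.5 CPM in batch 1 and 56.0, 17.7, 15.8 and 15.7 CPM in batch 2 bleomycin. Replicate 5 lay within the saline range, and Itgam rose with a log2 change of 1.83 (SE 0.48, adjusted p = 0.0148), or 1.37 (adjusted p = 0.0518) without replicate 8. The model Gm49368 shares 3450 of 5024 exon bases of Itgam, so its level is uncertain too. Antisense models overlap C1s1, Cd55 and F13a1, and the strand setting of the counts is not known.

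Vsig4, a C3b receptor of resident macrophages that also inhibits the alternative convertase, had few reads, with 0 to 18 counts in saline and 8 to 81 in batch 1 bleomycin. It rose from 0.309 ± 0.263 to 1.82 ± 1.35 CPM, a log2 change of 2.40 (SE 0.69, adjusted p = 0.0152), with overlap in batch 1. The call was lost without replicate 8 (adjusted p = 0.0672) and by limma-voom (adjusted p = 0.0885). Neutrophils also carry complement receptors; 3 of 7 tested neutrophil markers rose, and the 9 markers summed to 60.0 to 101 CPM in saline, 94.5 to 249 in batch 1 and 158 to 283 in batch 2 bleomycin. Ltf, which was not called, made up 7.29 to 71.1, 54.3 to 183 and 49.3 to 236 CPM of these sums, and Camp and Ngp were at 0 in some libraries. Their part in the receptor changes was not tested.

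Among the complement regulators, the soluble inhibitors Cfi and Serping1 rose and the membrane inhibitors Cd55 and Cd59a were not called. Cfi, factor I, the protease that inactivates C3b and C4b, measured 0.256, 0, 0.0730, 0.126 and 0.883 CPM in saline, 1.98, 2.43, 1.89 and 4.14 CPM in batch 1 bleomycin, and 1.99, 1.84, 1.44 and 2.93 CPM in batch 2. The groups did not overlap, although the saline counts were only 0 to 12 reads. Cfi thus passed the filter on low counts through the bleomycin libraries, and its place among the tested genes depended on them. Its log2 change of 3.27 (SE 0.65, adjusted p = 0.0013) was the largest among the members, rank 185 of all tested genes, and ran from 2.93 to 4.28 when libraries were left out. Serping1, the C1 inhibitor, which also blocks the MASP proteases and kallikrein, measured 145, 154, 159, 146 and 145 CPM in saline, 193, 287, 217 and 340 CPM in batch 1 bleomycin, and 327, 254, 250 and 276 CPM in batch 2. All bleomycin libraries were above saline (log2 change 0.79, SE 0.14, adjusted p = 0.000467).

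Cd55, decay accelerating factor, which dissociates the C3 convertases, went from 68.2 ± 11.4 to 84.6 ± 3.69 CPM with overlap in both batches (log2 change 0.31, SE 0.12, adjusted p = 0.0521), and 5 of 20 alternatives called it. Cd59a, which blocks the pore, stood at 14.5 ± 4.56 CPM in saline, 16.0 ± 0.974 in batch 1 and 12.6 ± 1.73 in batch 2 (0.16, SE 0.20, adjusted p = 0.588). The C3 level per unit of Cd55 was 7.30 ± 1.68 in saline, 13.7 ± 8.53 in batch 1 and 17.8 ± 5.67 in batch 2 bleomycin. The fluid-phase inhibitor Serping1 and the membrane inhibitor Cd55 were thus both at substantial levels in all groups, with Serping1 at 64.4 and Cd55 at 14.1 CPM per kilobase in saline.

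In coagulation, the protease genes F7 and F10 rose and the initiator F3 was not called. F3 encodes tissue factor and measured 49.1, 55.2, 47.8, 48.3 and 58.6 CPM in saline, 25.9, 55.8, 46.8 and 57.3 CPM in batch 1 bleomycin, and 59.3, 41.4, 39.7 and 33.5 CPM in batch 2. The ranges overlapped, with replicate 5 the lowest (log2 change -0.16, SE 0.20, adjusted p = 0.602). F7, factor VII, the protease that tissue factor activates, measured 5.88, 6.03, 6.39, 5.59 and 4.49 CPM in saline, 7.42, 17.4, 13.9 and 24.0 CPM in batch 1 bleomycin, and 24.7, 18.3, 14.0 and 12.2 CPM in batch 2. All bleomycin libraries lay above saline, and F7 rose 2.76-fold (log2 change 1.46, SE 0.28, adjusted p = 0.00105).

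F10, factor X, went from 4.65 ± 2.05 to 12.8 ± 5.61 CPM, a log2 change of 1.47 (SE 0.39, adjusted p = 0.0115), with replicate 5 inside the saline range. The liver makes both factors for plasma. Of 10 hepatocyte markers 1 of 3 tested rose, and they summed to 169 to 205 CPM in saline, 164 to 380 in batch 1 and 356 to 422 in batch 2 bleomycin, mostly Trf, which other cells make too (156, 237 and 357 CPM on average). The defining marker Alb stood at 0 to 0.332 CPM in every library, and Ttr was at 0 in all bleomycin libraries. Cyp2e1 (28.7, 27.6 and 21.3 CPM on average) and Ahsg (0.741, 1.63 and 1.75 CPM) were tested and not called. Macrophages also express both factors: per macrophage marker without Lyz2, F7 was 1.09 and 1.49 times and F10 1.09 and 1.24 times the saline value in batches 1 and 2. With Lyz2 in the list, F7 was 2.22 and 1.98 times and F10 2.24 and 1.70 times. The part of either cell type in the rise was not tested. F5, factor V, the cofactor of factor X, was not called (9.13 ± 3.50 to 13.9 ± 4.47 CPM, log2 change 0.61, SE 0.29, adjusted p = 0.118). F13a1, the clot-stabilizing transglutaminase, was not called either (44.2 ± 9.28 to 69.1 ± 38.7 CPM, 0.65, SE 0.34, adjusted p = 0.178), and bleomycin replicates 6 and 8 stood at 91.1 and 112 CPM beside 35.4 and 37.4 CPM in replicates 5 and 7. Per macrophage marker, F13a1 was 0.611 and 0.466 times the saline value in batches 1 and 2 without Lyz2, and 1.25 and 0.607 times with it, so its direction in batch 1 depends on that marker.

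The endothelial genes Vwf and Thbd moved in opposite directions. Vwf encodes von Willebrand factor, which tethers platelets and carries factor VIII, and measured 324, 287, 402, 322 and 289 CPM in saline, 387, 660, 473 and 797 CPM in batch 1 bleomycin, and 737, 504, 539 and 543 CPM in batch 2. Replicate 5 fell below the highest saline library and the other 7 bleomycin libraries lay above it (log2 change 0.83, SE 0.19, adjusted p = 0.00397). Thbd encodes thrombomodulin, which turns thrombin from a clotting enzyme into an activator of protein C, and measured 342, 400.1, 447, 397 and 387 CPM in saline, 236, 172, 230 and 172 CPM in batch 1 bleomycin, and 224, 256, 293 and 252 CPM in batch 2. Every bleomycin library was below every saline library, and the level in batch 1 was 1.95-fold lower (log2 change -0.96, SE 0.12, adjusted p = 2.96e-05). In saline Thbd had the highest level of all members per kilobase, 106 CPM, and in batch 1 bleomycin it stood at 54.4 CPM.

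Of 10 pan-endothelial markers none rose and 3 fell (median log2 change -0.18), and their sum was 1648 to 2014 CPM in saline, 1246 to 1710 in batch 1 and 1389 to 1624 in batch 2 bleomycin. Vwf per unit of this sum was 0.172 to 0.200 in saline, 0.226 to 0.594 in batch 1 and 0.335 to 0.478 in batch 2 bleomycin. Thbd per unit was 0.187 to 0.241, 0.128 to 0.151 and 0.145 to 0.184 in the same groups. Both ratios thus moved as the genes did, with no overlap between bleomycin and saline. Of 6 markers of venous endothelium, which is rich in Vwf, 3 rose (Ackr1, Selp and Vcam1) and 1 fell (Slc6a2), while Nr2f2 and Ephb4 were not called. Ackr1 had only 2 to 8 counts in saline. The 6 markers summed to 375 to 420 CPM in saline, 382 to 501 in batch 1 and 400 to 487 in batch 2 bleomycin, with overlap. The part of vessel type in the change of Vwf or Thbd was not tested.

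The other anticoagulant genes did not follow Thbd. Tfpi, tissue factor pathway inhibitor, measured 25.2, 24.4, 25.7, 23.9 and 29.1 CPM in saline, 33.7, 32.8, 35.6 and 33.1 CPM in batch 1 bleomycin, and 40.2, 24.8, 27.2 and 29.6 CPM in batch 2. Batch 1 lay above saline and batch 2 overlapped it, and the small rise (log2 change 0.40, SE 0.13, adjusted p = 0.0258) was lost in 8 of 20 alternatives, among them leaving out replicate 8 (adjusted p = 0.06). Tfpi2, a related protease inhibitor that binds to matrix, was scarce and rose from 0.571 ± 0.295 to 2.37 ± 0.749 CPM (1.98, SE 0.44, adjusted p = 0.00322), with no overlap in batch 1. In batch 2 Tfpi2 ran from 0.879 to 2.66 CPM and overlapped saline (0.232 to 1.02 CPM). Procr, the endothelial protein C receptor, was not called (3.26 ± 0.576 to 4.93 ± 1.59 CPM, 0.60, SE 0.26, adjusted p = 0.094), and F2r, the thrombin receptor PAR1, stood at 201 ± 27.3, 220 ± 46.1 and 192 ± 29.9 CPM in saline, batch 1 and batch 2 (0.13, SE 0.14, adjusted p = 0.512).

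**Figure D4:**
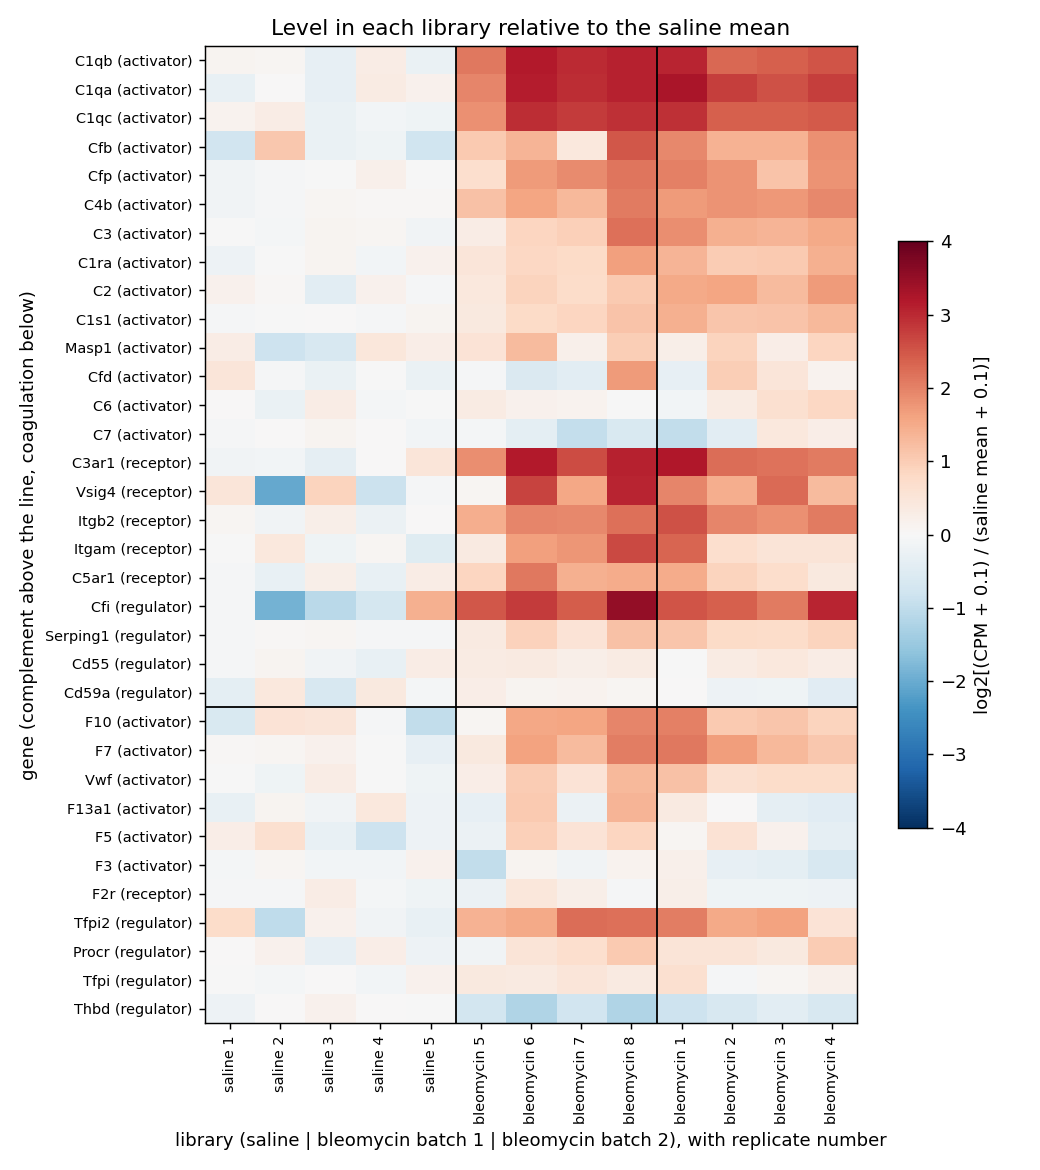
The colour gives log2 of the level of each gene in each library relative to the saline mean, both with 0.1 CPM added, for complement genes above the horizontal line and coagulation genes below it. Bleomycin replicate 5 is the palest of batch 1 bleomycin in 19 of the 23 genes that rose, and Thbd is below the saline mean in all 8 bleomycin libraries.

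Batch 2 bleomycin has no saline of its own, so its difference from the batch 1 saline libraries holds the batch as well and is given without a test. The median of this difference over the members was 1.24 on the log2 scale. Both comparisons share the saline libraries. In batch 1, 17 members lay wholly above and 1 wholly below saline, where 25.3% of all tested genes had no overlap; in batch 2, 21 lay above and 1 below, where 28.1% had none. Between the bleomycin batches none of the 34 members was called by edgeR's quasi-likelihood test, against 1.68% of all tested genes. Of the members, 4 had an unadjusted p under 0.05 (14.6% of all tested genes did): the log2 differences of batch 2 from batch 1 were 0.44 for C1s1, 0.75 for C2, 0.34 for Thbd and -0.62 for C5ar1. The lowest adjusted p was that of C1s1 (0.0982), which DESeq2 alone of the tools called. Without bleomycin replicate 8, C1ra, C1s1, C3 and C4b passed as different between the batches, and 5.28% of all genes tested in that fit did.

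Further genes of both systems were taken from lists of 38 complement and 35 coagulation genes. Of the 26 complement genes tested, 7 rose and 1 fell (30.8% called, near the 30.9% of all genes), with a median log2 change of 0.16. Itgax, the alpha chain of complement receptor 4, rose from 21.6 ± 3.59 to 84.4 ± 14.99 CPM, a log2 change of 1.97 (SE 0.15, adjusted p = 7.14e-07), and Cr2, complement receptor 2 of B cells, rose as well (2.01, SE 0.47, adjusted p = 0.00588). The regulators Csmd1, from 6.81 ± 1.37 to 34.7 ± 12.5 CPM, and Clu (clusterin), from 74.2 ± 4.72 to 240 ± 62.5 CPM, rose with log2 changes of 2.36 and 1.70. C5ar2, the second C5a receptor, rose by a log2 change of 1.04, the ficolin Fcna by 1.81 and the collectin Colec12 by 0.27, and the mannose-binding lectin Mbl1 fell (-1.92, SE 0.69, adjusted p = 0.0443). Hc, which encodes C5, was not called at 276 ± 26.0, 144 ± 107 and 250 ± 88.5 CPM in saline, batch 1 and batch 2. C4a, the copy of C4b, was lower in batch 2 than in batch 1 bleomycin (log2 difference -1.99, adjusted p = 0.00678), while C4b was not called between them. Hc and C4a were picked after their values were seen.

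Of the 23 further coagulation genes tested, 6 rose and none fell (26.1% called), with a median log2 change of 0.08. Itgb3, a chain of the fibrinogen and vitronectin receptors, rose by a log2 change of 0.80 (SE 0.14, adjusted p = 0.000545). Pros1, protein S, the cofactor of activated protein C, rose by 0.62 (SE 0.12, adjusted p = 0.000871). F8, factor VIII, which Vwf carries in plasma, went from 5.52 ± 2.12 to 11.2 ± 0.994 CPM (1.03, SE 0.27, adjusted p = 0.00838). Lman1, a cargo receptor for factors V and VIII, rose by 0.37, Anxa5 by 0.35 and Kng2, a kininogen, by 1.96. Kng2 had 0 to 22 counts in saline and passed the filter on low counts only through the bleomycin libraries. Its batch 1 range overlapped saline. The plasma factor genes F2, F9, F12, F13b, Fga and Fgb had too few reads to be tested, while F11, Fgg, Klkb1 and Serpinc1 were tested and not called.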

How the data were processed

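Counts per gene symbol were deposited by the authors as whole numbers without normalization. Per the submitters' processing notes the tools were cutadapt 4.4, STAR 2.7.10b, featureCounts 2.0.3 and DESeq2 1.42.1 on build mm39; what each tool did, the annotation, strandedness and molecular identifiers are not given in the sources used. Per the labels, RNA came from 10 µm sections (RNeasy FFPE), and 8 ng went into SMARTer Stranded Total RNA-Seq Pico libraries. Total counts were 6337147 to 28885129 per library (median 15859315). From 78.4% to 86.1% of small counts (1 to 10) were even, so both reads of a pair may be counted. No libraries of a group were duplicates (chi-square per degree of freedom 9.18 to 235 over 22 pairs).

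Genes were kept by filterByExpr (20468), scaled by TMM and tested with robust quasi-likelihood fits in edgeR 4.0.16 (R 4.3.3) with 3 groups: saline, batch 1 bleomycin and batch 2 bleomycin. A gene was called at an adjusted p (Benjamini-Hochberg) under 0.05. The script was tested on simulated data. CPM uses TMM-scaled totals. Exon lengths came from GENCODE M21, matched for 50671 symbols and for every member. The overlaps between gene models were computed from its exon coordinates, but none of these coordinates is given because the build differs. Alternatives were RLE factors, no filter, DESeq2 1.42.0, limma-voom (limma 3.58.1), batch 1 only, no batch term, each library left out and, added after seeing the data, protein-coding genes only. All 34 members are named, as are the called genes of each further list with the lowest p. The members and lists were chosen with earlier results of these data known.

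The deposited normalized values were not used. The adjusted p-values and fold changes are computed here and are not the authors'.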

Additional observations from a re-analysis of the deposited data

Results flagged for a closer look

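Of 102 sets of 4 or 5 libraries (34 members in 3 groups), 12 held a library set apart from the rest by Dixon's criterion, which chance meets in about 1 of 20 sets. Bleomycin replicate 1 accounted for 6 of them, each time as the highest of batch 2. It held 88.8 CPM of C1qc (61.5 to 64.3 in the other 3), 68.4 of C3ar1 (31.2 to 34.7) and 56.0 of Itgam (15.7 to 17.7). Its F10 level was 19.3 CPM (8.79 to 10.1), its Vwf level 737 (504 to 543) and its F2r level 237 (175 to 180). In the same batch, Procr stood at 6.74 CPM in bleomycin replicate 4, against 4.31 to 4.69. In batch 1 bleomycin, replicate 8 held 129 CPM of Cfd, against 26.5 to 38.3 in the other libraries.

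In saline, replicate 1 was the highest for Cfd (55.2 CPM, others 33.0 to 39.0) and replicate 2 for Cfb (1.62, others 0.368 to 0.629). Replicate 3 was the highest for F2r (248 CPM, others 178 to 196) and replicate 5 for Cfi (0.883, others 0 to 0.256).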

How the results depend on the processing

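No paired analysis was possible because batch 1 bleomycin and saline share only 1 replicate number, and the bleomycin batches share none. Over 20 alternatives, 21 of the 34 members kept their direction and their side of the threshold, and 18 of the 24 called members stayed called in all of them. Between 18 (without bleomycin replicate 8) and 26 members were called. The calls of C2, Cfb, Itgam, Vsig4, Masp1 and Tfpi were each lost in at least 1 alternative, all of them without replicate 8. The changes of 3 uncalled members turned sign: Cfd ran from -0.37 to 0.725 and F3 from -0.31 to 0.044 as libraries were left out, and Cd59a was -0.0049 without a batch term; the cause was not tested. Over all genes, 343 differed between the bleomycin batches, against 737 by DESeq2, 106 by limma-voom and 85 with protein-coding genes only, and 148 to 1093 with libraries left out, the highest without replicate 8. Depth limits Cfi and Vsig4 most, with 0 to 12 and 0 to 18 saline counts.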
